A study of Mus musculus with 4 samples.

Results

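The interferon response and antigen presentation genes of mouse embryonic fibroblasts were examined in cells with and without FAK, the focal adhesion kinase that signals where cells attach to matrix. The set holds 37 listed genes, namely the interferon receptor chains, signal carriers and transcription factors, antiviral effectors, and the parts that load peptides onto class I molecules. It was read from an Affymetrix mouse expression array through probe sets annotated to 1 of these genes alone. Of the 37 genes, 35 had such a probe set (54 probe sets in all), out of 18194 genes measured this way. Isg15 was paired only with a probe set that it shares with Gm9706, and Ifi44 with none.

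The cells were FAK -/- fibroblasts after endothelin-1 (ET-1), untreated FAK -/- fibroblasts, FAK +/+ (wild-type) fibroblasts after ET-1 and untreated FAK +/+ fibroblasts, with 1 array for each of the 4 groups. ET-1 is a peptide that acts through G protein-coupled receptors, and its dose is not given in the labels. All groups were at passage 5, grown with 10% fetal bovine serum, starved of serum for 24 h and then kept with or without ET-1 for 24 h. How many embryos or lines stand behind each genotype is not given in the sources used here, so line and genotype cannot be told apart. With 1 array per group a single difference has no error estimate, and all values are on the log2 scale unless a fold is named.

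Type I interferons bind a receptor of the chains Ifnar1 and Ifnar2, and interferon-gamma binds a receptor of Ifngr1 and Ifngr2. Both switch on JAK kinases and STAT proteins, which act on response elements upstream of antiviral and antigen presentation genes. Fibroblasts are known to keep a low standing level of this programme without infection and to raise it strongly when interferon is added.

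The arrays were not equal in quality. For the control gene Gapdh the 3' probe set read 0.90 above the 5' probe set after ET-1 and 0.85 above it untreated in the knockout, against 3.79 and 0.87 in wild type. For Actb the gap was 1.27 and 1.30 in the knockout, against 1.81 and 0.66 in wild type. The wild-type array after ET-1 had the largest gap for both controls, and the untreated arrays also differed for Actb. The wild-type ET-1 array enters the genotype difference after ET-1, the ET-1 difference in wild type and each value averaged over treatments, and is absent from the comparison of untreated cells. The annotation used here pairs no probe set with the gene for FAK, so the genotype labels were not checked against its level. Of 11 listed fibroblast markers, Lum and Fap were at or below the level filter (the median of all values) in every array, 7 of the other 9 fell in the knockout by limma, and Dcn rose, where 7.05% and 6.6% of all genes did. Thy1 was 98.2-fold lower after ET-1 and 16.7-fold lower untreated, and Pdgfrb was 19.7-fold and 12.8-fold lower. Col3a1 read 14.54 to 14.76 in the 4 arrays. Of 8 epithelial markers past the filter, 4 rose (Krt7, Krt8, Krt18 and Dsp) and Krt19 fell. Dsp passed the filter through knockout arrays only and Krt19 through wild-type arrays only, so these counts cannot stand for the list.

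Upstream sequence is shown for 5 of the genes because the results turn on them: B2m, Ifih1 and Ifitm3 were lower in the knockout, Ifngr2 had opposite ET-1 differences in the genotypes, and Ifit1 is a classical interferon-stimulated gene that was dim in every array. Each line gives the 250 bases before the RefSeq start of the gene, 5′ to 3′ on the gene's strand, in the GRCm38.p6 build. Capitals mark the core of the interferon-stimulated response element (GAAA, any 2 bases, then GAAA) on either strand.
B2m (chr2:122147437-122147686, plus strand): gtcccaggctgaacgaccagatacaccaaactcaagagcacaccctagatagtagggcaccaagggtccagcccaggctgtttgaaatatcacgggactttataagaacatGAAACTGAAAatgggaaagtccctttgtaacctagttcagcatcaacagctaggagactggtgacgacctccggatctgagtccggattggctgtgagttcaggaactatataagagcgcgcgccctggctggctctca
Ifih1 (chr2:62646256-62646505, minus strand): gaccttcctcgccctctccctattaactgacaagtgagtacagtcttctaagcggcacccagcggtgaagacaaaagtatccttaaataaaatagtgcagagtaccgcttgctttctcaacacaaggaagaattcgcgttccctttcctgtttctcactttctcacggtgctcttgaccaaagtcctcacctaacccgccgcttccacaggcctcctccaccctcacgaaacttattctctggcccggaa
Ifitm3 (chr7:141010745-141010994, minus strand): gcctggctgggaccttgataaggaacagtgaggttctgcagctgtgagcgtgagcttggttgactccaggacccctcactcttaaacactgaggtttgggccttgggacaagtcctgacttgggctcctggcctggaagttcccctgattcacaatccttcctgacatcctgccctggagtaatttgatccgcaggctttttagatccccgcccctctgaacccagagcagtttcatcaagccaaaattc
Ifngr2 (chr16:91546809-91547058, plus strand): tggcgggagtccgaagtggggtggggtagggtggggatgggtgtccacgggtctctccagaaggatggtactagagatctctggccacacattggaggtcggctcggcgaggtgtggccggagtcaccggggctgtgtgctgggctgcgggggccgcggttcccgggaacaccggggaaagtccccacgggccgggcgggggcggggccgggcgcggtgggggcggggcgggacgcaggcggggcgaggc
Ifit1 (chr19:34640639-34640888, plus strand): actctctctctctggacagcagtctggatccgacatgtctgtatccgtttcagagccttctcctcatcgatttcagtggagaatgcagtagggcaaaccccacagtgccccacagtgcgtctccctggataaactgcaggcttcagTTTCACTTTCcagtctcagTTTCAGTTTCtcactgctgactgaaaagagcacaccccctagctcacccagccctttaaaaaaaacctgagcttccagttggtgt
B2m held 1 match, from 139 to 130 bases before the start. Ifit1 held 2 matches, from 104 to 95 and from 85 to 76 bases before the start, both on the reverse strand. The windows of Ifih1, Ifitm3 and Ifngr2 held none. Among all 32851 RefSeq promoter windows cut to the same 250 bases, 2.98% held a match. Of the 37 genes, 30 had a window, and 11 of these had a match. Counted by window, as for all genes, 11 of the 34 windows of the set held a match. The gamma-activated site TTCNNNGAA, which reads the same on both strands, was in a window of 5 of the 30 genes. It was in 5 of the 34 windows of the set and in 7.02% of all windows. In Bst2 the 2 kinds of match overlapped. Of the 5 genes that fell in the knockout by limma, 4 had a window and 2 of these, B2m and Cxcl10, held a response element match. Of the 13 other genes past the level filter, 12 had a window and 3 held a match (Bst2, Ifitm2 and Rsad2). Of the 17 genes that stayed dim, 12 had a window and 5 held a match (Gbp2, Gbp3, Ifit1, Ifit3 and Stat2). A match is a run of letters and was not tested as a site.

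About as many genes of the set were dim as passed the level filter. The level filter was the median of all values on the arrays (8.90), and 17 of the 35 genes stayed at or below it in every array, with values from 6.51 to 8.64. That is 48.6% of the set, against 32.5% of all genes measured. Mx1, a dynamin-like antiviral GTPase, read 6.51 after ET-1 and 6.53 untreated in the knockout, against 6.54 and 6.59 in wild type. Ifit1, which binds viral RNA, read 6.69 after ET-1 and 6.65 untreated in the knockout, against 6.97 and 6.82 in wild type. Irf7, the factor that amplifies type I interferon production, lay between 7.98 and 8.18 in the 4 arrays. Usp18, the feedback protease that removes ISG15 from proteins, lay between 7.86 and 8.07. The transporters of antigen peptides Tap1 and Tap2, the immunoproteasome subunits Psmb8 and Psmb9 and the class I transactivator Nlrc5 were also at or below the filter everywhere. The probe set that Isg15 shares read 8.65 after ET-1 and 8.77 untreated in the knockout, against 8.72 and 8.77 in wild type.

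**Figure D1:**
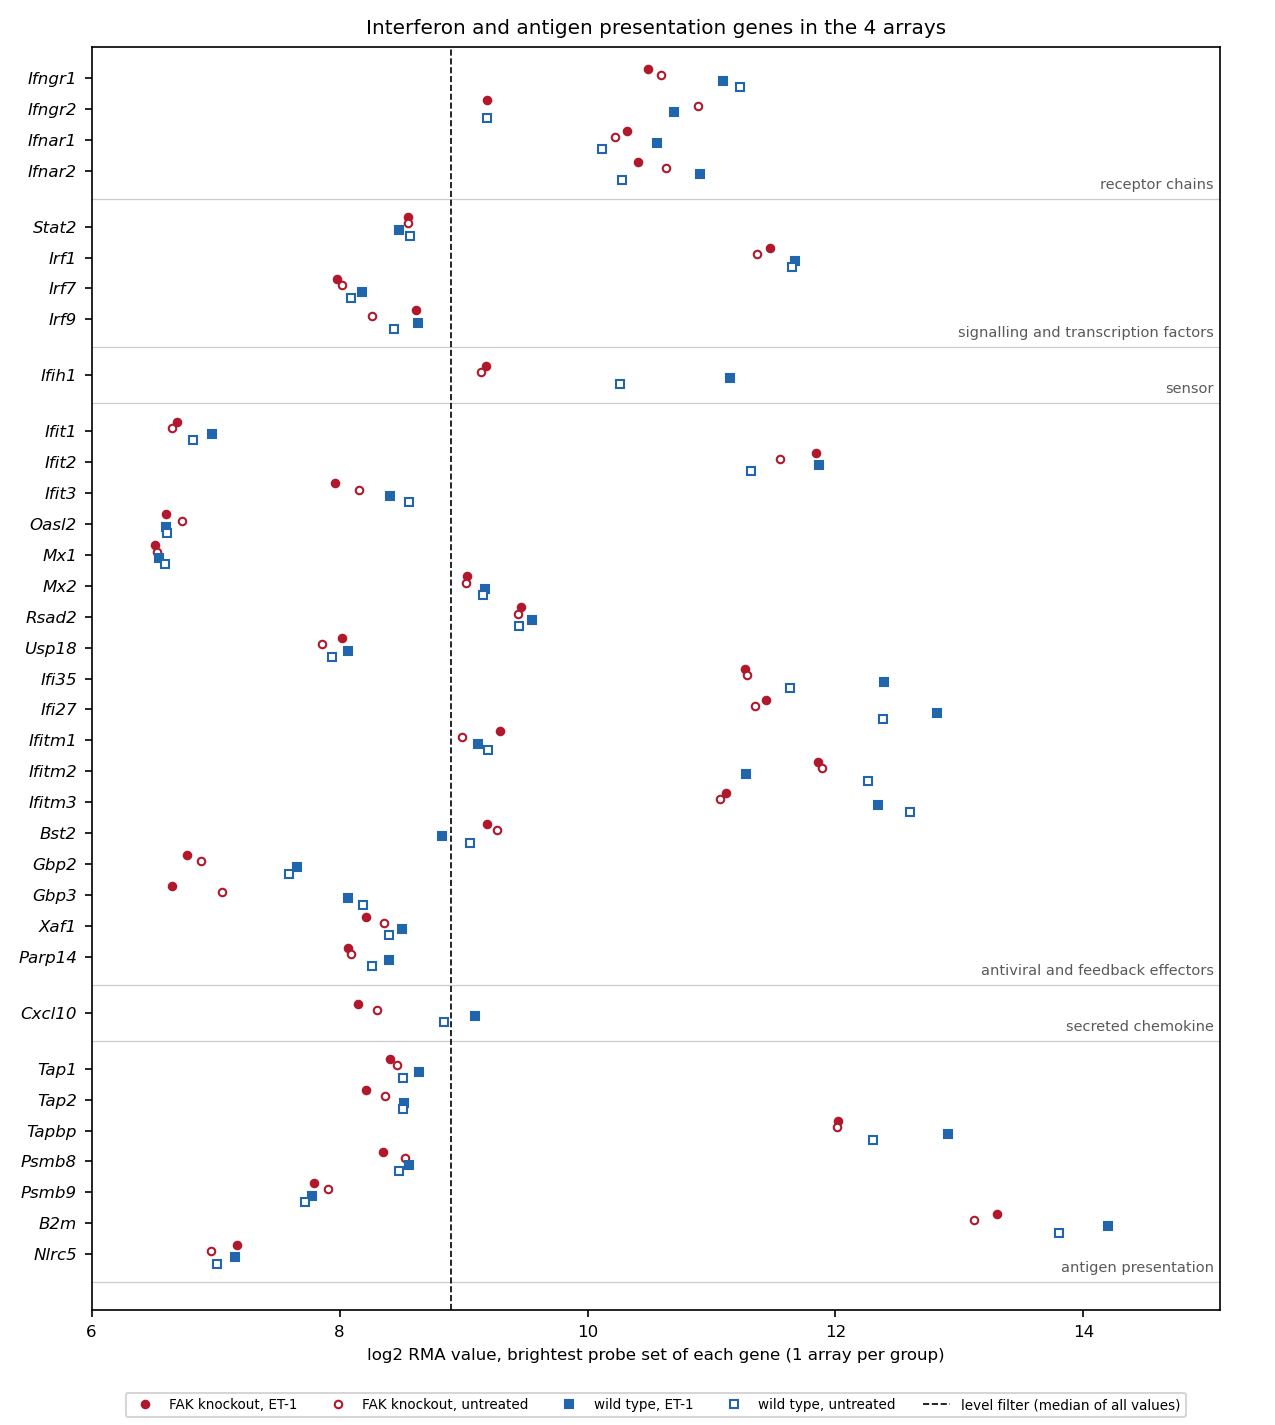
Log2 values (horizontal axis) of the brightest probe set of each of the 35 measured genes, grouped by role down the page, with 1 point for each of the 4 arrays and a dashed line at the level filter of 8.90. The points of 17 genes all lie left of the line, and the red knockout points of Ifih1, Ifi27, Ifitm3 and B2m lie left of both blue wild-type points. The same order is seen in other genes, among them Ifngr1, Irf1, Mx2 and Gbp3.

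Among the dim genes the genotype differences reached further than the ET-1 differences. ET-1 differences among the 17 ran from -0.40 to 0.35 in the knockout and from -0.15 to 0.18 in wild type. The untreated knockout minus wild-type difference ran from -1.14 to 0.19, and 12 of the 17 were below 0 in both treatment states. The interferon-gamma-induced GTPases Gbp2 and Gbp3 stood at the low end. Gbp3 read 6.65 after ET-1 and 7.05 untreated in the knockout, against 8.07 and 8.19 in wild type. Gbp2 read 6.77 after ET-1 and 6.88 untreated in the knockout, against 7.66 and 7.59 in wild type. Both knockout values of each gene lay below both wild-type values, at levels where a difference on this array is uncertain. The share of all genes in which the arrays of the genotypes do not overlap was not counted, here or for the genes below.

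Over all 35 measured genes, 23 (65.7%) were lower in the knockout in both treatment states and 3 were higher in both, against 36.3% and 31.1% of the 18194 genes measured. The median knockout minus wild-type difference was -0.24 after ET-1 and -0.14 untreated, against -0.03 and 0.01 over all genes. These are descriptions of a list and carry no test.

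The 18 genes that passed the filter include Cxcl10, which passed through 1 wild-type array only, so their counts cannot stand for the set. Of these 18, 3 were at least 2-fold lower in the untreated knockout (Ifih1, Ifi27 and Ifitm3), where 4.59% of the 12290 genes past the filter were. Ifngr2 was at least 2-fold higher, where 4.78% of all genes were. After ET-1, 5 were at least 2-fold lower in the knockout (the same 3 with Ifi35 and Ifngr2) and 0 higher, against 6.53% and 5.61% of all genes. With the filter dropped, 6 of the 35 genes were 2-fold lower after ET-1 (4.7% of 18194 genes) and 4 untreated (3.25%), with the dim Gbp3 as the further gene in both states. The count higher was then 0 after ET-1 (3.94% of genes) and 1 untreated (3.3%).

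One test was possible, an additive limma fit of genotype and treatment over all 12290 genes, with Benjamini-Hochberg adjustment. The 1 degree of freedom left over is the interaction of genotype and treatment, so it sets a genotype difference against its change with treatment and not against a spread between cultures. By this fit 5 of the 18 genes fell in the knockout (Ifih1, Ifi27, Ifitm3, Cxcl10 and B2m) and 0 rose, where 7.05% and 6.60% of all genes did. At an unadjusted p under 0.05 the counts were 8 of 18 genes, and 29.9% of all genes, in either direction. With no filter on dim genes, 6 of the 35 fell (Ifih1, Ifi27, Ifitm3, Ifit3, Gbp2 and Gbp3) against 4.28% of 18194 genes, 0 rose against 3.95%, and 3 of the 5 calls were shared.

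**Figure D2:**
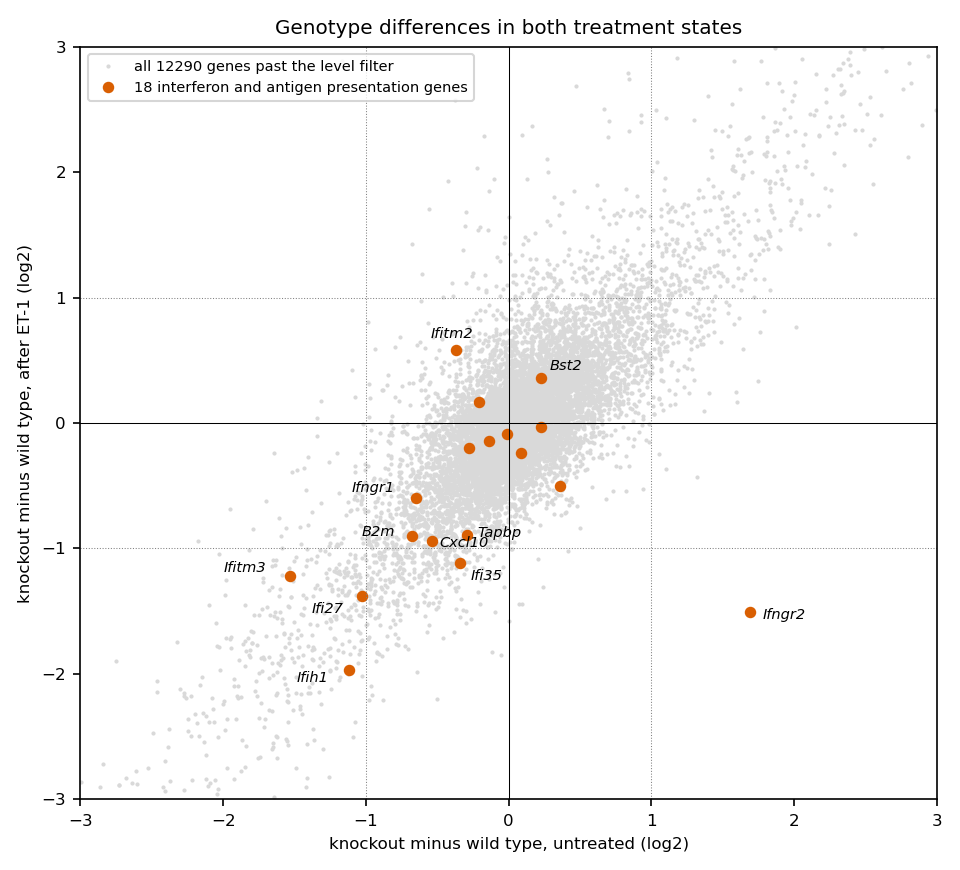
Knockout minus wild-type log2 difference in untreated cells (horizontal axis) and after ET-1 (vertical axis) for all 12290 genes past the level filter (grey) and the 18 interferon and antigen presentation genes among them (orange), with dotted lines at 2-fold and genes beyond 3 on either axis not drawn. Ifitm3, Ifi27 and Ifih1 lie past 2-fold in the lower left, and Ifngr2 lies alone among the 18 in the lower right, at 1.69 and -1.51.

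Among the receptor chains, Ifngr1 read lower in both knockout arrays, and the order of the genotypes in Ifngr2 differed between treatment states. Ifngr1, the ligand-binding chain of the interferon-gamma receptor, read 10.49 after ET-1 and 10.59 untreated in the knockout, against 11.09 and 11.23 in wild type. Both knockout arrays lay below both wild-type arrays, but the averaged difference of -0.63 ± 0.13 (SE) did not pass limma over all genes (adjusted p = 0.053). Ifnar1 and Ifnar2, the chains for type I interferons, overlapped between genotypes. Ifnar1 ran from 10.22 to 10.32 in the knockout and from 10.12 to 10.56 in wild type (averaged difference -0.07 ± 0.13). Ifnar2 ran from 10.41 to 10.63 in the knockout and from 10.28 to 10.91 in wild type (-0.07 ± 0.24).

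Ifngr2, the signalling chain of the interferon-gamma receptor, had the 1 ET-1 difference of 2-fold or more in the set. Its brighter probe set, 1423557_at, read 9.19 after ET-1 and 10.89 untreated in the knockout, against 10.70 after ET-1 and 9.19 untreated in wild type. It was thus 3.23-fold lower after ET-1 than untreated in the knockout (-1.69) and 2.85-fold higher in wild type (1.51). The difference between both ET-1 differences (knockout minus wild type) was -3.20, rank 12 by size among 12290 genes. The additive fit gave a genotype difference of 0.09 ± 0.81 (limma, adjusted p = 0.961), since it averages both states.

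The other probe set of Ifngr2 did not follow. Probe set 1423558_at, which the annotation credits to the same accession as 1423557_at, read 9.11 after ET-1 and 9.10 untreated in the knockout, against 9.08 and 9.00 in wild type. Its ET-1 difference was 0.01 in the knockout and 0.08 in wild type, and all 4 values lay close above the level filter. The mean of both probe sets gave an ET-1 difference of -0.84 in the knockout and 0.79 in wild type, under 2-fold in each. Which probe set follows the Ifngr2 transcript more closely was not tested.

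**Figure D3:**
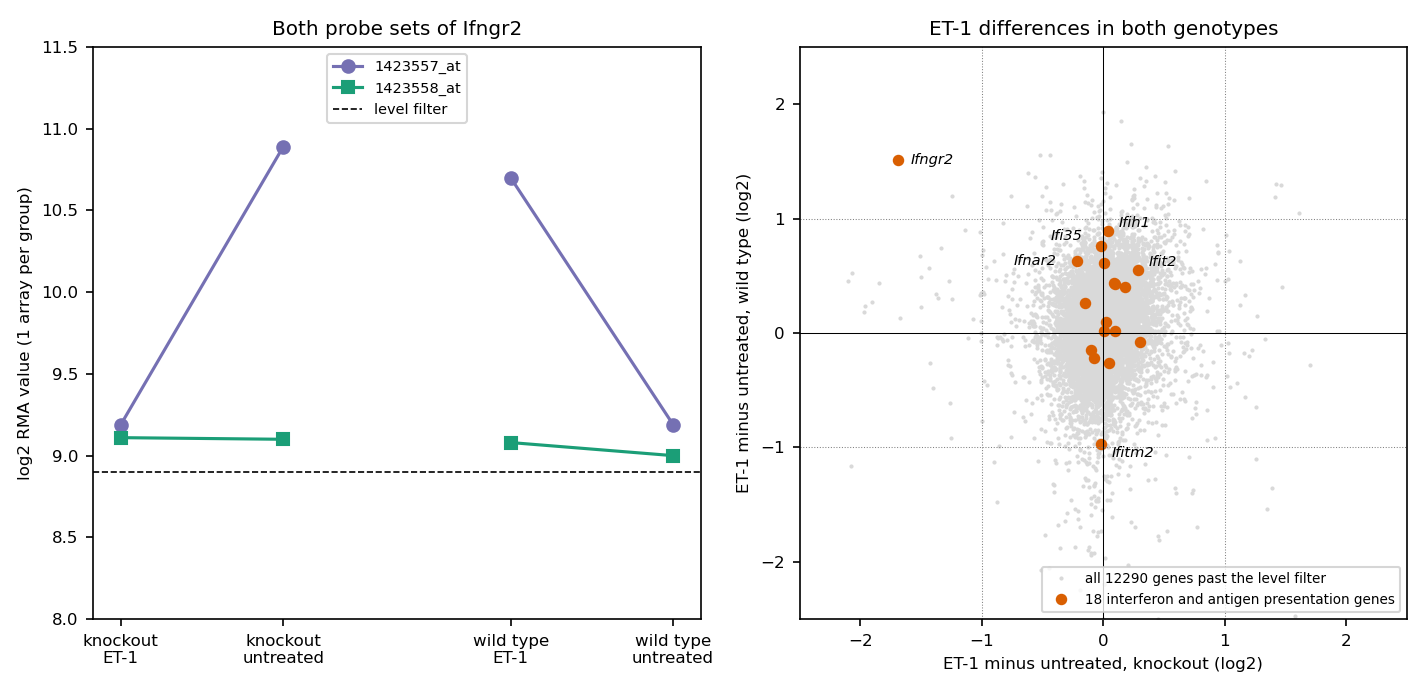
Left, log2 values of both Ifngr2 probe sets in the 4 arrays, with lines joining the arrays of 1 genotype and a dashed line at the level filter. Right, ET-1 minus untreated log2 difference in the knockout (horizontal axis) and in wild type (vertical axis) for all 12290 genes past the filter (grey) and the 18 genes of the set among them (orange), with genes beyond 2.5 not drawn. Probe set 1423557_at spans 9.19 to 10.89 while 1423558_at stays between 9.00 and 9.11, and Ifngr2 lies at -1.69 and 1.51 in the right panel.

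Of the transcription factors, only Irf1 passed the filter. Irf1, which is induced by interferon-gamma and drives class I genes, read 11.47 after ET-1 and 11.37 untreated in the knockout, against 11.67 and 11.65 in wild type. The knockout arrays were lower by 0.20 and 0.28, and the averaged difference of -0.24 ± 0.16 did not pass limma (adjusted p = 0.396). Stat2 and Irf9, which act together in type I interferon signalling, stayed between 8.48 and 8.57 and between 8.26 and 8.63.

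Ifih1, which encodes the viral RNA sensor MDA5, fell in the knockout. It read 9.18 after ET-1 and 9.14 untreated in the knockout, against 11.15 and 10.26 in wild type. Both knockout values were near the level filter, and the knockout was 3.91-fold lower after ET-1 and 2.18-fold lower untreated. The averaged difference was -1.55 ± 0.23 (limma, adjusted p = 0.0282). The difference after ET-1 (-1.97) uses the array with the large Gapdh gap, and the untreated difference (-1.12) does not.

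Ifitm3 and Ifi27 fell among the antiviral effectors. Ifitm3, a membrane protein that blocks virus entry through endosomes, read 11.12 after ET-1 and 11.07 untreated in the knockout, against 12.34 and 12.60 in wild type. The knockout was 2.33-fold lower after ET-1 and 2.89-fold lower untreated, with an averaged difference of -1.38 ± 0.18 (limma, adjusted p = 0.0207). Ifi27, a small interferon-induced membrane protein, read 11.44 after ET-1 and 11.35 untreated in the knockout, against 12.82 and 12.38 in wild type (-1.21 ± 0.19, adjusted p = 0.0302 by limma). Its other probe set gave -0.93 after ET-1 and -1.07 untreated. For both genes the knockout and wild-type arrays did not overlap, and all 4 arrays were above the filter. Irf1 and Mx2 did not overlap either, at smaller differences, and the share of all genes that do so was not counted.

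The relatives of Ifitm3 in the set gave other values. Ifitm1, Ifitm2 and Ifitm3 are neighbours on chromosome 7 and alike in sequence, so signal shared between their probe sets was not tested. Ifitm2 read 11.86 after ET-1 and 11.89 untreated in the knockout, against 11.28 and 12.26 in wild type. The wild-type arrays lay on either side of the knockout arrays, and the ET-1 difference was -0.02 in the knockout and -0.97 in wild type. Ifitm1 stayed between 8.99 and 9.29, close to the filter.

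The other effectors past the filter overlapped between genotypes or differed by less than 2-fold in untreated cells. Ifit2, a relative of Ifit1, read 11.84 after ET-1 and 11.55 untreated in the knockout, against 11.87 and 11.32 in wild type (averaged difference 0.10 ± 0.17). Its windows held no response element match, while those of the dim Ifit1 and Ifit3 held 2 each. Rsad2 (viperin, 9.44 to 9.55 in the 4 arrays) and Mx2 (9.02 to 9.17) spanned little. Bst2 (tetherin), which holds budding virus at the cell surface, was higher in the knockout in both states, at 9.19 and 9.27 against 8.83 and 9.05, and did not pass (0.30 ± 0.10, limma adjusted p = 0.143).

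Ifi35 depended on the probe set. By its brightest, which can bind more than 1 transcript by its _s_at suffix, Ifi35 read 11.27 after ET-1 and 11.29 untreated in the knockout, against 12.39 and 11.63 in wild type. The difference after ET-1 was -1.12 by that probe set, -0.48 by the second and -0.11 by the third, and the averaged difference did not pass limma (-0.73 ± 0.25, adjusted p = 0.154). The wild-type array after ET-1 was the highest of the 4 and the other 3 lay close together.

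Cxcl10, a chemokine that draws T cells, read 8.15 after ET-1 and 8.30 untreated in the knockout, against 9.09 and 8.84 in wild type. It passed the filter through 1 array, and its fall in the knockout (-0.74 ± 0.14, limma adjusted p = 0.0484) was close to the threshold. Dropping the filter gave an adjusted p of 0.0535, and the alternatives ran from 0.0192 to 0.0716.

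B2m, the light chain of every class I molecule, fell in the knockout. B2m read 13.30 after ET-1 and 13.12 untreated in the knockout, against 14.20 and 13.80 in wild type. Both knockout arrays lay below both wild-type arrays, by 1.86-fold after ET-1 and 1.60-fold untreated. The averaged difference was -0.79 ± 0.13 (limma, adjusted p = 0.0355), and dropping the filter gave an adjusted p of 0.0539, with the alternatives between 0.00922 and 0.0539. Its second probe set differed by -0.48 after ET-1 and -0.71 untreated. Tapbp (tapasin), which holds class I molecules at the peptide transporter, read 12.02 after ET-1 and 12.01 untreated in the knockout, against 12.91 and 12.30 in wild type by its brighter probe set, and the dimmer one differed the other way after ET-1 (0.41).

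**Figure D4:**
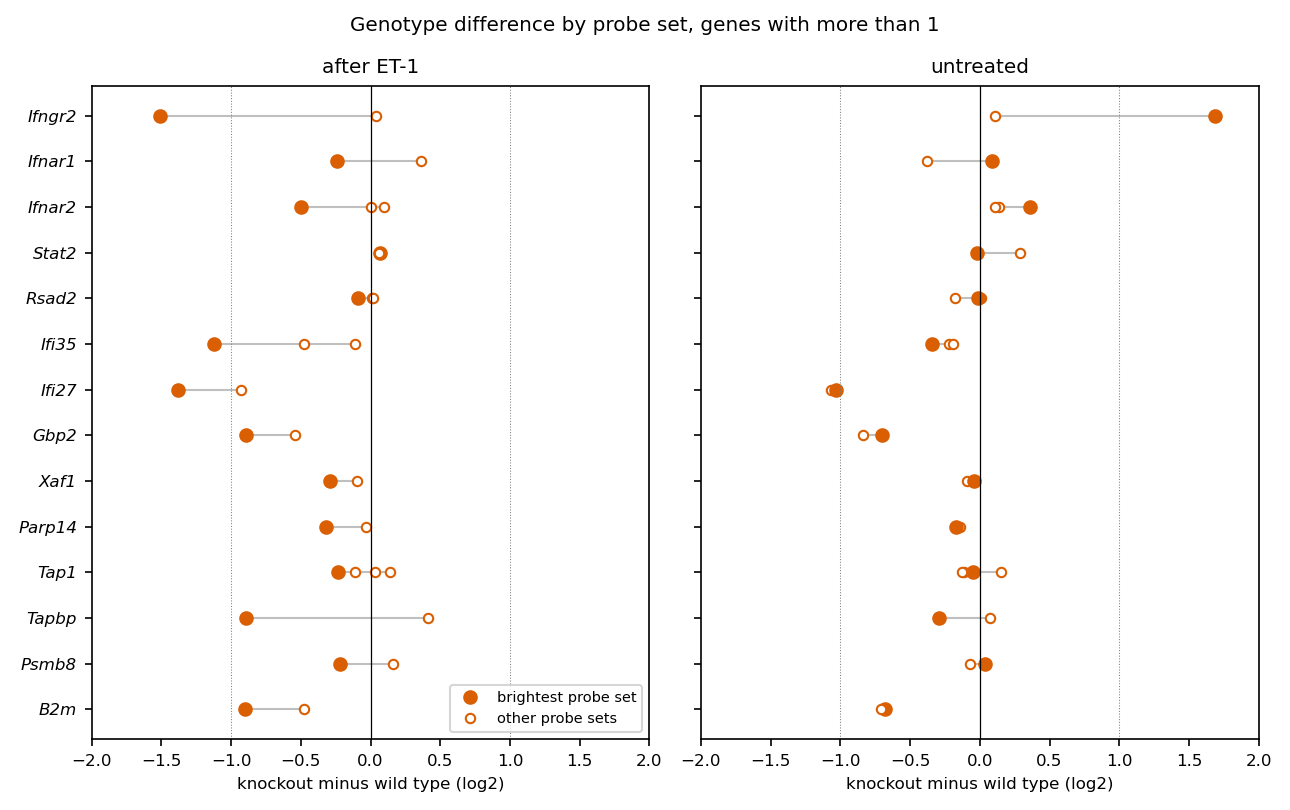
Knockout minus wild-type log2 difference after ET-1 (left) and untreated (right) for every probe set of the 14 genes with more than 1, with the brightest probe set filled. The probe sets of 6 genes, among them Ifi27, B2m and Gbp2, lie on 1 side of 0 in both states, and those of Ifngr2, Ifnar1 and Tapbp lie on both sides after ET-1.

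Over the 35 measured genes the median ET-1 difference was -0.02 in the knockout and 0.10 in wild type, against -0.03 and 0.02 over all genes measured. Of the 18 genes past the filter, 0 passed limma for ET-1 in either direction, as did 0.0% of all genes, and at an unadjusted p under 0.05 there were 0 of the 18 and 5.23% of all genes. The lowest adjusted p for ET-1 over all genes was 0.78, so this fit does not tell the set apart from any other genes. At 2-fold, Ifngr2 was the 1 gene lower in the knockout (0.277% of all genes) and the 1 gene higher in wild type (0.781%). By its brighter probe set it was 1 of 2 genes among 12290 (0.0163%) that met both. Its other probe set met neither, with 0.01 in the knockout and 0.08 in wild type. The opposite pattern was shown by 0 of the 18 (0.0325%). No gene of the 18 was 2-fold higher in the knockout (0.236% of all genes) or lower in wild type (1.17%). The ET-1 difference of Ifih1 was 0.04 in the knockout and 0.89 in wild type. Ifitm2 went the other way in wild type (-0.97) and gave -0.02 in the knockout. By its brightest probe set Ifi35 gave an ET-1 difference of -0.02 in the knockout and 0.76 in wild type. Its other probe sets gave 0.35 and -0.07 in wild type. Tapbp gave 0.01 in the knockout and 0.61 in wild type by its brighter probe set. Its dimmer probe set gave -0.22 in the knockout and -0.56 in wild type. The wild-type values rest on the array with the large Gapdh gap, and its part in them was not tested.

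The wider pathway was read from 90 further genes, of which 73 were measured and 49 passed the filter. By limma 7 of the 49 fell in the knockout and 0 rose, against 7.05% and 6.6% of all genes past the filter. The median genotype difference of the 49 was -0.06 after ET-1 and -0.04 untreated, against -0.03 and 0.02 over all genes past the filter. At 2-fold, 7 were lower in the knockout after ET-1 (6.53% of all genes) and 4 untreated (4.59%), and 0 were higher in either state (5.61% and 4.78%). Among those lower after ET-1, Ifi204, Erap1 and Tlr3 passed the filter through wild-type arrays only, so these counts cannot stand for the list. Ifi204 is also in the untreated and limma counts. A count without the filter was not made for this list. Each gene of this list is given by its brightest probe set alone. Cgas has 2 probe sets and Trim25 and Jak1 have 3 each, and the others were not compared. Ifi204, a DNA-binding member of the Ifi200 family, read 5.70 after ET-1 and 6.72 untreated in the knockout, against 11.29 and 10.41 in wild type (-4.64 ± 0.49, limma adjusted p = 0.0138). Its knockout values were below the filter, and its family holds close copies. The DNA sensor Cgas read 9.47 after ET-1 and 9.52 untreated in the knockout, against 10.99 and 10.98 in wild type, and fell by 1.49 ± 0.10 (limma adjusted p = 0.00731). Parp12 read 9.44 and 9.35 in the knockout, against 10.84 and 10.77 in wild type, and fell by 1.41 ± 0.10. Trim25, a ubiquitin ligase of RIG-I signalling, read 11.88 and 11.29 in the knockout, against 12.94 and 12.37 in wild type, and fell by 1.06 ± 0.16. In each of these genes both knockout arrays lay below both wild-type arrays, but these genes were named for their large untreated differences. The share of all genes without such overlap was not counted.

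The kinase Jak1, which serves both receptor types, fell by 0.96 ± 0.16 (limma adjusted p = 0.0348). It read 10.99 after ET-1 and 11.17 untreated in the knockout, against 12.02 and 12.06 in wild type. The nonclassical class I gene H2-M3 read 9.73 after ET-1 and 9.60 untreated in the knockout, against 10.65 and 10.59 in wild type, and fell by 0.95 ± 0.10. The GTPase Igtp fell by 0.53 ± 0.10. Of the classical heavy chains, H2-D1 read 10.16 after ET-1 and 10.07 untreated in the knockout, against 10.51 and 10.94 in wild type. It differed by -0.61 ± 0.17 (adjusted p = 0.0987 by limma) and H2-K1 by 0.15 ± 0.17 (adjusted p = 0.639). These genes are highly alike and vary between mouse strains, so their probe sets are uncertain. Samd9l read 10.58 in both knockout arrays, against 10.43 after ET-1 and 9.70 untreated in wild type, and did not pass (0.51 ± 0.21). Others averaged higher in the knockout without passing, among them Pdia3 (0.71 ± 0.17), Irf3 (0.68 ± 0.16), Ifi30 (0.60 ± 0.16) and Mavs (0.58 ± 0.16). Of the 49 genes, 20 read higher in the knockout after ET-1 and 17 untreated, and 29 and 32 read lower.

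The interferon ligands were dim. Ifnb1 read 8.33 to 8.43, Ifna4 7.49 to 7.66 and Ifng 6.28 to 6.44 in the 4 arrays, and Ifna2 was the 1 of 4 measured ligands above the filter, at 8.92 to 9.04. Of 12 measured leukocyte markers, whose cells express this programme strongly, 6 were at or below the filter everywhere, among them the defining marker Ptprc (CD45) at 6.58 to 6.70. The other 6 passed the filter, and the brightest of these were Laptm5 (10.87 to 11.34) and Csf1r (10.04 to 11.36). The summed level of the 12 was 13.00 after ET-1 and 13.06 untreated in the knockout, against 12.71 and 12.89 in wild type. Of the 6 past the filter, 1 marker, Csf1r, rose in the knockout (1.09 ± 0.12, limma adjusted p = 0.0146), where 6.6% of all genes did. Csf1r has 3 probe sets, and only the brightest was read for each marker. In bulk RNA, fewer cells of a type and less RNA per cell cannot be told apart, a limit that touches every genotype difference above. The summed level of the fibroblast markers was 16.44 after ET-1 and 16.62 untreated in the knockout, against 17.32 and 17.21 in wild type. That of the epithelial markers was 14.92 and 15.26 in the knockout, against 13.21 and 13.78 in wild type. The part of these marker differences in the interferon values was not tested.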

How the data were processed

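Total RNA (100 ng per sample) was labelled in 2 amplification cycles and hybridised to 4 arrays, per the labels' protocols. The values used are log2 expression levels that the authors deposited for each probe set. The submitters' processing notes name RMA and give no version. Values run from 5.00 to 15.24 with array medians of 8.89 to 8.92, and were used as deposited. Of 45101 probe sets, 34958 were paired with 1 gene by the platform annotation, 932 with several, and 9211 were not listed. Symbols were checked by Entrez identifier against RefSeq (GRCm38.p6), and 34754 probe sets matched. The brightest probe set by mean stood for a gene. Genes with no value above the median of all values were left out. Promoter windows came from RefSeq.

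An additive model was fitted with limma 3.58.1 in R 4.3.3 (lmFit, eBayes with trend, prior degrees of freedom 2.996), with a threshold of 0.05 on adjusted p, and was checked on simulated data. Python 3.11.15, numpy 2.4.6, pandas 2.3.3 and matplotlib 3.10.9 did the rest. All 4 values are given for members past the filter that reached 2-fold in a difference, passed limma, or code for a receptor chain. The same was done for up to 8 genes of the wider list with the largest untreated difference. This rule did not cover other genes of the wider list or the markers. Further genes named for their level were chosen after their values were seen. The members and lists were chosen with earlier results of these data known. The number of arrays limits every precision. The alternatives were another probe set rule, other normalisations, no filter, probe set kinds and eBayes without a trend.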

Additional observations from a re-analysis of the deposited data

Results flagged for a closer look

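Ifngr2 differed in opposite directions after ET-1 in the genotypes, with a log2 difference of -1.69 in the knockout and 1.51 in wild type by its brighter probe set. The difference between them was not tested, since each group is 1 array, and the dimmer probe set gave 0.01 in the knockout and 0.08 in wild type.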

How the results depend on the processing

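No paired analysis was possible because each group is 1 array and the labels give no replicate numbers, and for the same reason no array could be left out with a test remaining. When a gene's probe sets were averaged, the count at 2-fold or more was 3 lower in the knockout after ET-1 (5 by the brightest probe set). It was 0 higher in the untreated knockout, 0 higher after ET-1 in wild type and 0 lower after ET-1 in the knockout, where Ifngr2 had made each count 1. Quantile normalisation put 1 gene at 2-fold lower after ET-1 in wild type, against 0 as deposited. Without probe sets ending in _s_at, _x_at or _a_at, 14 of the genes were left to test, with 3 at 2-fold lower in the knockout after ET-1 and 2 falling by limma, Ifih1 and Ifitm3; Ifi27 and B2m then had no probe set. Ifih1 and Ifitm3 passed limma under every alternative run, with adjusted p from 0.0022 to 0.0469 for Ifih1 and from 0.00376 to 0.0298 for Ifitm3. Ifi27 passed in each of the 5 alternatives that could measure it, although its untreated difference was -0.99 with array medians subtracted. B2m missed without the filter (adjusted p = 0.0539) and passed in the other alternatives that could measure it. Cxcl10 missed without the filter, without the 3 probe set kinds and without a trend. Ifngr1 passed with averaged probe sets, with medians subtracted and with quantile normalisation. No value reversed its sign among those at 2-fold or more.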
